A study of Mus musculus with 17 samples.

Results

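The cytosolic ribosomal protein genes encode the proteins of the small (Rps) and large (Rpl, Rplp) subunits of the ribosome. They were taken by symbol: Rps or Rpl followed by a number and at most 1 letter a, x or l, together with Rpsa, Rplp0, Rplp1 and Rplp2, with pseudogene symbols left out. Mouse prostate RNA sequencing gave 75 such genes (30 of the small subunit, 45 of the large subunit and its stalk) among 13997 features in the files of 3 genotypes. In separate files of an inducible model it gave 81 among 39179. The 3 genotypes, all C57BL/6 mice, were the Ctnnb1 group (n = 3), prostate tumours of about 12 months whose Ctnnb1 allele lacks exon 3; the combined group (n = 3), tumours of about 6 to 8 months with the same allele plus another engineered change; and wild-type prostate of 12 months (WT, n = 3). Loss of exon 3 leaves a stable beta-catenin, and the labels do not name the promoter that drives recombination in these tumours. The inducible model recombines the alleles of the combined genotype through an inducible CreERT2, whose driver is not described here. Its tumours, of about 15 months, had androgen deprivation (ADT, n = 3) or mock treatment (mock, n = 2). In the combined group age is confounded with genotype. The labels do not say that each library came from a separate animal, so p-values measure the spread between these samples, which may be technical.

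Each ribosome holds 1 copy of nearly every ribosomal protein, apart from the acidic stalk proteins, so cells make these proteins in matched amounts. Their genes are among the most abundantly transcribed in any cell. Their mRNAs begin with a tract of pyrimidines, the terminal oligopyrimidine motif, through which growth signals control translation, and demand for ribosomes is high in growing tissue and in secretory glands. A few members have paralogues, some of them restricted to a tissue: Rpl3l is known from heart and skeletal muscle, Rpl10l and Rpl39l from testis, and Rps27l as a gene induced by p53.

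The deposited values were apparently read counts that the authors had scaled per library and rounded, so totals are not taken as depths. From the gaps between low values, 1 read in the WT libraries was estimated at 1.25, 1.24 and 1.30 units. That corresponds to about 30.8, 30.4 and 30.3 M reads (M for the prefix mega) over the features used. No such estimate was made for the other libraries, and their depth is unknown. Luminal epithelial markers were present in every group. Their summed level was 109006 to 121478 in Ctnnb1, 87573 to 115838 in combined and 101847 to 114481 in WT libraries. Of these 6 markers, 2 were called higher and 1 lower in the Ctnnb1 group, and 2 higher and 2 lower in the combined group. In the inducible model the sum was 43657 to 55195 in ADT and 84531 to 96166 in mock libraries. The pieces also held different other tissues. Summed smooth muscle markers were 1207 to 2625 in Ctnnb1 and 4700 to 16038 in combined libraries, against 128346 to 163578 in WT. Seminal vesicle markers summed to 184 to 4399 in Ctnnb1 and 39386 to 190275 in combined libraries, against 429969 to 3922606 in WT. Macrophage markers were called higher for 4 of 5 genes in the Ctnnb1 and 5 of 5 in the combined group, and fibroblast markers were higher for 3 of 5 in the combined group. Proliferation markers were higher in both tumour groups for 5 of 5 genes. These are bulk samples, in which fewer cells of a type and less RNA per cell cannot be told apart.

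Stretches of 8 promoters show letters that many members share. They are the 3 most raised members in the Ctnnb1 group and the 3 most lowered in the combined group that RefSeq's table holds, plus Rps27l and Rpl3l, and they were chosen after the values were seen. Each runs 5′ to 3′ on the gene's strand, from 80 bases before to 30 after the first start that the table lists (GRCm38.p6, RefSeq). Capitals mark CGGAAG or its reverse complement, the core of sites bound by ETS factors, and TCGCGAGA on either strand; Rps27l carries the first as well, and the Rpl10 and Rpl3l stretches carry neither (Rpl10 has CGGAAG elsewhere in its window).
Rpsa (chr9:120127686-120127795, plus strand): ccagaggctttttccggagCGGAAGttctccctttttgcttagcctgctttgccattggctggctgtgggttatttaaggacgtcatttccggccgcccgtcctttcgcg
Rps18 (chr17:33955636-33955745, minus strand): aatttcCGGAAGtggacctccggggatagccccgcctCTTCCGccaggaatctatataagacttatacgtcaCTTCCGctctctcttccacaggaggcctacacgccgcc
Rps15a (chr7:118116118-118116227, minus strand): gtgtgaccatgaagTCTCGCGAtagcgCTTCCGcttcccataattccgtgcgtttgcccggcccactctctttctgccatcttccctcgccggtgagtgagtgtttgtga
Rpl10 (chrX:74270736-74270845, plus strand): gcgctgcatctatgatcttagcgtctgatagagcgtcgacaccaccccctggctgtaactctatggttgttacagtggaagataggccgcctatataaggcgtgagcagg
Rps21 (chr2:180257299-180257408, plus strand): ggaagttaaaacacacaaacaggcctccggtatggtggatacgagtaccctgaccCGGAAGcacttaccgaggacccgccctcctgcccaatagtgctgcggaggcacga
Rps25 (chr9:44407634-44407743, plus strand): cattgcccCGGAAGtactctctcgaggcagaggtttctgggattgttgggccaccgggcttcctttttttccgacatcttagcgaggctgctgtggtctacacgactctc
Rps27l (chr9:66946006-66946115, plus strand): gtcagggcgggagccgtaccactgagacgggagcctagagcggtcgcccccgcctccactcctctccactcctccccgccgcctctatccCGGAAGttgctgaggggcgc
Rpl3l (chr17:24727746-24727855, plus strand): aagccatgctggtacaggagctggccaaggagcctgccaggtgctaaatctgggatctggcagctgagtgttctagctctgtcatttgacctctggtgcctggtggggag

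The RefSeq table held promoters of 60 of the 81 members, 56 of them outside the paralogues. In windows of 300 bases (250 before and 50 after the start), CGGAAG on either strand was found in 39 of these 56 (69.6%), against 4639 of all 27025 promoters (17.2%). TCGCGAGA was in 9 of 56 (16.1%), against 1.08% of all promoters. The pyrimidine stretch CTTTCC on the gene's strand was in 21 of 56 (37.5%), against 14.0%. The share with CGGAAG was alike among members that rose in the Ctnnb1 group (22 of 33) and those that were not called there (14 of 20). Among members lower in the combined group it was 17 of 24, and 19 of 29 among those not called there. TCGCGAGA was in 8 of 33 members that rose in the Ctnnb1 group and in 1 of 20 of the others. A match describes the letters of a window and nothing more.

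The median member stood at 25084, 24355 and 23124 units in the Ctnnb1 libraries and at 15292, 12855 and 17313 in the combined libraries, against 20445, 19925 and 16859 in the WT libraries. All Ctnnb1 libraries lay above the highest WT library, and combined library 12 lay above WT library 3, so that the combined group and WT overlapped. Summed over members, the genes took 7.38%, 7.16% and 6.74% of all summed values in the Ctnnb1 libraries. They took 4.49%, 3.88% and 5.18% in the combined libraries, against 4.12%, 4.14% and 3.36% in WT.

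Which of the combined group and WT had the higher median share turned round with the denominator. Totals were 27.1 to 27.9 M units in Ctnnb1 libraries and 26.7 to 27.5 M units in combined libraries, against 37.5 to 39.3 M units in WT. Taking out the 50 highest genes left 71 of the 75 members. These took 7.45%, 7.19% and 6.89% of the remaining values in the Ctnnb1 libraries. They then took 4.50%, 3.87% and 5.10% in the combined libraries, against 5.35%, 5.38% and 4.61% in WT.

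**Figure D1:**
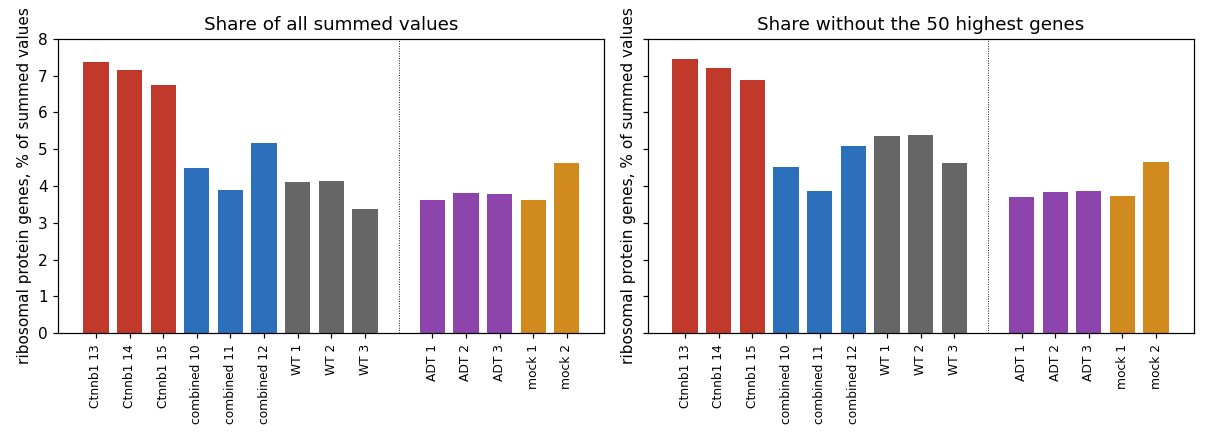
Summed values of the ribosomal protein genes as a percentage of all summed values (left) and without the 50 highest genes (right), one bar per library, with the inducible model right of the dotted line. The right panel holds 71 of 75 members in the genotype files and 78 of 81 in the inducible model. The Ctnnb1 libraries are above the combined and WT libraries in both panels (6.74% to 7.45%). The combined libraries (3.87% to 5.18%) overlap WT in both, with the higher median share on the left and the lower on the right. The inducible model has a scaling of its own and is not compared with the genotypes.

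Members moved together from library to library within a group. Library 3 was the lowest WT library in 73 of 75 members. In the combined group, library 11 was the lowest in 71 members and library 12 the highest in 71. The SD of a member within groups had a median of 0.15 on the log2 scale over the 74 members with a mean of at least 1000 units. Once the median shift of each library was taken off, it was 0.042. Tests of different members therefore read largely the same shift of the same libraries, and counts of members called are not counts of separate observations.

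Markers of other tissues also differed between libraries of a group. In the combined group, summed fibroblast markers were 261367, 547571 and 34476 in libraries 10, 11 and 12, so that the library with the highest fibroblast level had the lowest ribosomal protein values and the library with the lowest had the highest. Summed macrophage markers were 36629, 36698 and 9684 in the same libraries. In WT, library 3 had the highest summed seminal vesicle level, 3922606, against 1177260 and 429969 in libraries 1 and 2. WT fibroblast sums were alike (35077, 29675 and 30347). In the Ctnnb1 group the order differed: library 15, the lowest in 66 of 75 members, had the lowest fibroblast sum, 16019, against 23578 and 25483 in libraries 13 and 14, and the highest macrophage sum, 15577. The part of these tissues in the shift was not tested.

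**Figure D2:**
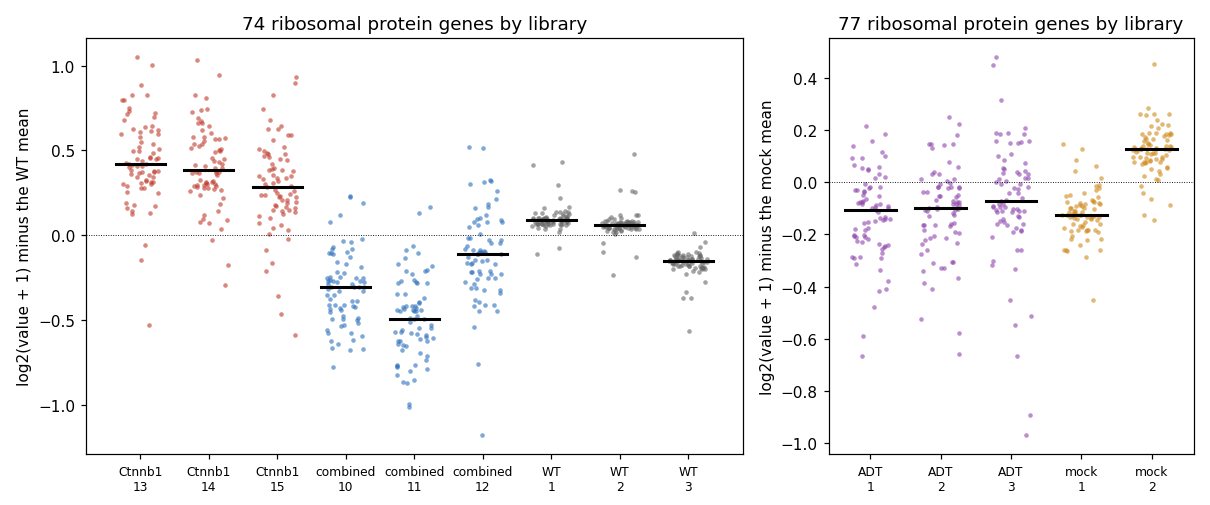
Level of each ribosomal protein gene with a mean of at least 1000 units in every library, as log2(value + 1) minus the mean of the WT libraries (left, 74 genes) or of the mock libraries (right, 77 genes); points are genes and black bars are medians. Ctnnb1 medians lie at 0.28 to 0.42 and combined medians at -0.50 to -0.11 on the authors' scaling. The direction of the combined group's median change flips with equal totals, but not with the other scalings tried.

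Some members did not keep to the shift of their library, and they were named after their values were seen. Rplp0, which anchors the ribosomal stalk, was at 55123, 75311 and 30793 units in the Ctnnb1 and 35565, 31077 and 52179 in the combined libraries, against 57308, 39591 and 33603 in WT. Its SD within groups after the shift was 0.40, the highest of the 74. Rpl29 followed with 0.32, Rps18 with 0.22, Rps2 with 0.21 and Rplp1 with 0.18. Processed pseudogenes of ribosomal protein genes are common in the mouse genome, so that reads can be split between near-identical copies, and 41 of the 75 members share their row of values with other symbols in the files.

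Against WT prostate, the Ctnnb1 group had higher transcript levels of ribosomal protein genes of both subunits. With limma, and p-values adjusted by Benjamini-Hochberg over all 13997 features (called at an adjusted p under 0.05), 46 of 75 members rose (61.3%) and 2 fell. Of all features 28.9% were called higher and 29.5% lower, 58.4% in either direction. The median member changed by 0.37 on the log2 scale (1.29-fold, interquartile range 0.25 to 0.53), where the median of all features was 0.00. The groups did not overlap for 61 members that were higher in the Ctnnb1 group (81.3%), beside 35.9% of all features. In the small subunit 21 of 30 members rose (median 0.46), and in the large subunit and stalk 25 of 45 (median 0.33).

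Among the 6 most raised members, 4 were of the small subunit and 2 of the large, a split that was not tested. Rpsa, a protein of the small subunit also described as the precursor of the laminin receptor, had 52453, 48624 and 47060 units in the Ctnnb1 libraries, against 27147, 25627 and 23260 in WT. The groups are far apart, and the change was 0.96 (SE 0.12, adjusted p = 0.000354). Rps18, which lies in the head of the small subunit, had 40114, 41055 and 35559 units in Ctnnb1 and 18556, 27955 and 15489 in WT libraries. The WT values are uneven, and the change was 0.96 (SE 0.22, adjusted p = 0.0061). Rps15a, also of the small subunit, had 20487, 19410 and 19370 units in Ctnnb1 and 12120, 12070 and 10588 in WT libraries (log2 change 0.77, SE 0.11, adjusted p = 0.000484). Rps2, at the entry of the mRNA channel, had 34029, 30908 and 30516 units in Ctnnb1, against 24059, 23519 and 13217 in WT libraries, of which the third stands apart (log2 change 0.70, SE 0.22, adjusted p = 0.0256). Rps2 lost its call without any 1 of the Ctnnb1 libraries.

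Rps19, the gene most often mutated in human Diamond-Blackfan anaemia, had 23927, 23753 and 21434 units in Ctnnb1 and 15124, 14564 and 13116 in WT libraries. It rose by 0.69 (SE 0.11, adjusted p = 0.000949). Rps6, the subunit protein phosphorylated by the S6 kinases, had 31134, 30233 and 27919 units in Ctnnb1 and 23637, 23741 and 20801 in WT libraries. It rose by 0.39 (SE 0.10, adjusted p = 0.00849), close to the median of all members. Rps13 was the member at the median, with a change of 0.37 (adjusted p = 0.0264), and it lost its call without Ctnnb1 library 13 or 14 or WT library 3.

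In the large subunit, Rpl3, which reaches to the peptidyl transferase centre, had 48971, 48334 and 52566 units in Ctnnb1 and 26182, 33024 and 24232 in WT libraries. It had the highest rise of that subunit, 0.86 (SE 0.14, adjusted p = 0.00117). Rpl7 had 52074, 46644 and 45119 units in Ctnnb1 and 29576, 29477 and 25634 in WT libraries, a rise of 0.76 (SE 0.14, adjusted p = 0.00173). Rpl39, a small protein of the exit tunnel, rose by 0.56 (16131, 15717 and 14105 units in Ctnnb1, against 10988, 10748 and 9388 in WT). Rpl5, which carries the 5S RNA into the ribosome together with Rpl11, rose by 0.45 (adjusted p = 0.0108). Rpl11 itself was not called (0.24, adjusted p = 0.119), although its groups did not overlap. Rpl13a, which in human cells also acts in a translational silencing complex, rose by 0.38 (adjusted p = 0.0199), and Rpl22, which binds viral RNA as well as the ribosome, by 0.30 (adjusted p = 0.0156). Both lost their calls without Ctnnb1 library 14 or WT library 3, and Rpl13a also without Ctnnb1 library 13.

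Among members that were not called in the Ctnnb1 group, the lowest were Rpl10 (-0.18, adjusted p = 0.246), the protein whose loading completes the large subunit, and Rpl41 (-0.15, adjusted p = 0.314), the smallest of the ribosomal proteins. Rps14 (0.05), Rpl29 (0.04), Rpl38 (0.10), the X-linked Rps4x (0.27, adjusted p = 0.0538) and the stalk genes Rplp0 (0.25), Rplp1 (0.18) and Rplp2 (0.28) were not called either. Rplp0 had an SE of 0.35, so that its interval includes both no change and a rise like that of the other members.

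The count rested on which libraries entered the fit. It was 29 without Ctnnb1 library 14 and 30 without Ctnnb1 library 13 or WT library 3, and 30 of the 48 members called in either direction kept their call whichever library was left out. Equal totals shifted the all-feature median by 0.48, after which 71 members were called higher and 1 lower, with 7809 features called higher and 2101 lower. Relative to the median of all features, the median member was at 0.37 under all 4 scalings.

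**Figure D3:**
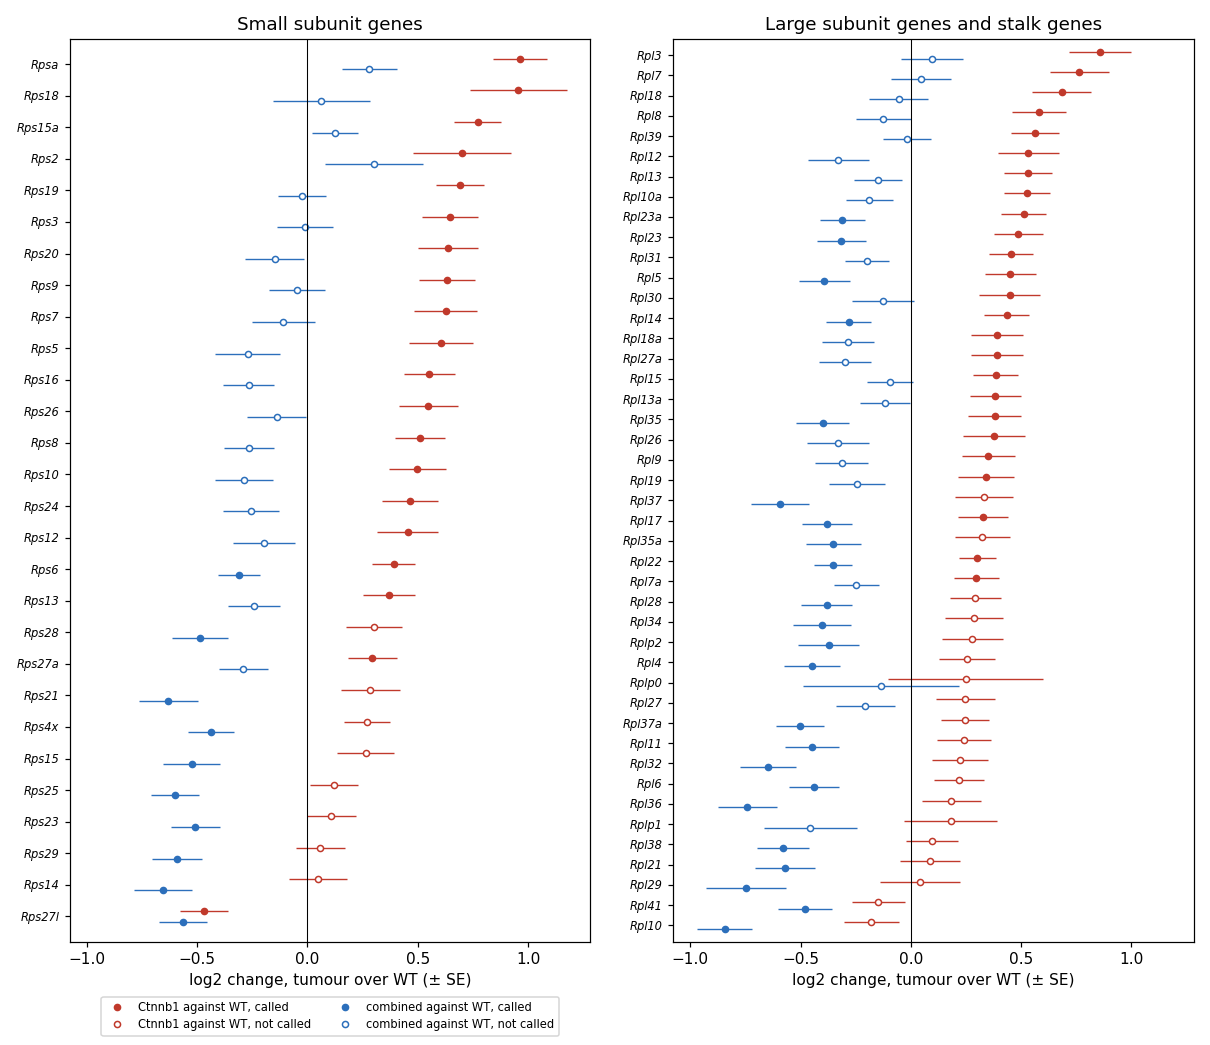
log2 change of each ribosomal protein gene in the Ctnnb1 and in the combined group over WT, with SE, for the small subunit (left) and the large subunit with the stalk (right), ordered by the change in the Ctnnb1 group; filled points were called. Rpl3l is left out because its changes (-4.28 and -5.00) lie far off the axis, and 2 further members are not shown. Most Ctnnb1 points lie right of 0 and most combined points left of 0 on the authors' scaling; with equal totals all points would lie about 0.48 or 0.51 further right.

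Against WT prostate, the combined group had lower levels of many members on the authors' scaling. That direction flipped with equal totals but not with the other scalings tried. limma called 36 of 75 members lower (48%) and 0 higher, where 29.5% of all features were called lower and 28.3% higher, 57.8% in either direction. At an unadjusted p under 0.05, 45 members passed, beside 63% of all features. The median change was -0.31 (0.807-fold, interquartile range -0.45 to -0.15), beside -0.01 for all features. The groups did not overlap for 32 members that were lower in the combined group (42.7%), beside 33.9% of all features. Of the small subunit 12 of 30 members fell (median -0.27), and of the large subunit and stalk 24 of 45 (median -0.33).

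With equal totals the all-feature median shifted by 0.51. Then 19 members were called higher and 1 lower, and the median member changed by 0.20, with 7986 features called higher and 1778 lower. Upper quartile scaling gave 34 members lower and 0 higher (median -0.28). Equal totals without the 50 highest genes gave 27 lower and 1 higher (median -0.23). Relative to the median of all features the members stood at -0.30 under all 4 scalings. Without WT library 1 or combined library 11 the count of lower members was 23, and 23 of the 36 members kept their call whichever library was left out.

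Transcript length went along with this fall. The median member has a transcript of 887 bases, and 46 of the 75 are under 1 kb. Of 657 other genes with transcripts under 1 kb, 44.1% were lower and 20.5% higher in the combined group, with a median of -0.30, against 28.6% and 29.2% of 12256 longer genes (median 0.01). Among 134 of the other short genes with a mean of at least 2000 units, 55.2% were lower and 15.7% higher (median -0.35). The other short genes still hold some ribosomal protein rows that are not among the 75 members, such as those under Rps27 and Rpl36a. Among genes under 1 kb, a fall of this size was therefore not particular to the members. Members under 1 kb had a median of -0.34 (25 of 46 lower). Longer members had a median of -0.27 (11 of 29 lower), beside the 0.01 of the other longer genes. In the Ctnnb1 group the other short genes had a median of -0.23, with 20.1% higher and 41.2% lower, so that the members and other short genes differed in sign there. The 136 with a mean of at least 2000 units had a median of -0.25, with 18.4% higher and 52.2% lower. Lengths were known for 92.8% of features, and the part of length in the members' values was not tested.

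The most lowered members were mostly of the large subunit, and the values below are on the authors' scaling. Rpl10 had 33703, 29010 and 34084 units in combined libraries, against 59378, 60812 and 53452 in WT. No library overlaps, and the fall was the largest of the core members (log2 change -0.84, SE 0.13, adjusted p = 0.000691). Rpl29 had 9687, 8662 and 5853 units in combined and 14494, 13904 and 11539 in WT libraries (-0.75, SE 0.18, adjusted p = 0.00797). Rpl36 had 6458, 5115 and 7103 units in combined and 11351, 10677 and 9055 in WT libraries (-0.74, SE 0.13, adjusted p = 0.00185). Rpl10, Rpl29 and Rpl36 had negative changes with equal totals too, of -0.33, -0.24 and -0.23, without passing the test.

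Rps14, the gene of the human 5q- syndrome, had 15543, 13650 and 18057 units in combined libraries, against 25951, 25120 and 22908 in WT. It fell by 0.65 (SE 0.13, adjusted p = 0.00303). Rpl32, of the large subunit, had 18662, 16004 and 21393 units in combined and 31101, 30663 and 25870 in WT libraries, and fell by 0.65 (SE 0.13, adjusted p = 0.00279). With equal totals these genes were at -0.14 and -0.14 and no longer called. Rpl38, which in mice is needed for normal patterning of the axial skeleton, had 5646, 5054 and 6837 units in combined and 9260, 8998 and 7826 in WT libraries (-0.58, adjusted p = 0.0035; -0.07 with equal totals).

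Several members of both kinds stood between these ends. Rps4x (-0.44), Rpl11 (-0.45), Rpl5 (-0.39), Rpl22 (-0.35), Rplp2 (-0.37) and Rps6 (-0.31) were called lower on the authors' scaling, and with equal totals they changed by 0.07, 0.06, 0.12, 0.16, 0.14 and 0.20. Rplp2 was at the threshold (adjusted p = 0.046), its groups overlapped, and it lost its call without any of 5 of the 6 libraries compared. Rps6, the median member of this comparison, and Rpl5 lost theirs without WT library 1 or 2 or combined library 11.

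Members that led the rise in the Ctnnb1 group were the highest here too, without a call; both comparisons use the same WT libraries, so the values are only set side by side. Rps2 had 22930, 21918 and 27969 units in combined libraries (0.30, adjusted p = 0.269) and Rpsa 28848, 27693 and 36275 (0.28, adjusted p = 0.0835). Rpsa was the only member whose combined libraries all lay above WT (32.1% of all features). Rps15a (0.12), Rpl3 (0.10), Rps18 (0.06), Rpl7 (0.05), Rpl39 (-0.02), Rps19 (-0.02) and Rpl13a (-0.12) were close to WT, and each of them moved upwards by about 0.51 with equal totals.

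Side by side on the authors' scaling, 10 members were called higher in the Ctnnb1 group and lower in the combined group. Rpl5, Rpl22, Rpl23 and Rps6 are among them. Another 36 were called higher in the Ctnnb1 group and not called in the combined group, and 24 were called lower in the combined group and not in the Ctnnb1 group. Rpl27, Rplp0 and Rplp1 were called in neither. The share of all features with each pair of calls was not counted. With equal totals 71 members were called higher in the Ctnnb1 group, and 19 higher and 1 lower in the combined group, so these pairs rest on the scaling. The difference between the tumour groups was not tested here.

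The paralogues Rps27l and Rpl3l were the 2 members called lower in both tumour groups on the authors' scaling. Rps27l had 2694, 3170 and 2581 units in the Ctnnb1 and 2711, 2284 and 2920 in the combined libraries, against 4056, 3901 and 3708 in WT. Neither tumour group overlapped WT. On the authors' scaling it fell by 0.47 in the Ctnnb1 group (SE 0.11, adjusted p = 0.00643) and by 0.57 in the combined group (SE 0.11, adjusted p = 0.0026), whereas with equal totals the changes were 0.01 and -0.05, neither called. The 2 rows listed under its partner Rps27 differed from WT by 0.13 and 0.08 in the Ctnnb1 group (adjusted p = 0.317 and 0.557) and by -0.61 and -0.66 in the combined group (adjusted p = 0.00157 and 0.00144). Which of them is Rps27 and which a retrocopy could not be told from the genotype files, so neither is among the 75.

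Rpl3l, the striated muscle form of Rpl3, was at 2, 3 and 51 units in the Ctnnb1 and at 4, 3 and 6 in the combined libraries, against 742, 203 and 29 in WT. The changes were -4.28 (SE 1.35, adjusted p = 0.025) and -5.00 (SE 1.35, adjusted p = 0.0129), the first lost without WT library 1 or 2 or Ctnnb1 library 13 or 14. Skeletal muscle markers moved with it. Their summed level over 6 genes was 70, 54 and 8954 in the Ctnnb1 and 1059, 119 and 97 in the combined libraries, against 123245, 40431 and 9066 in WT. Ckm, the muscle creatine kinase, was at 2, 1 and 1374 units in the Ctnnb1 and 123, 6 and 1 in the combined libraries, against 21417, 5490 and 885 in WT. Of the 6 markers, 5 were called lower in the Ctnnb1 and 6 in the combined group. The part of muscle tissue in the Rpl3l values was not tested.

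**Figure D4:**
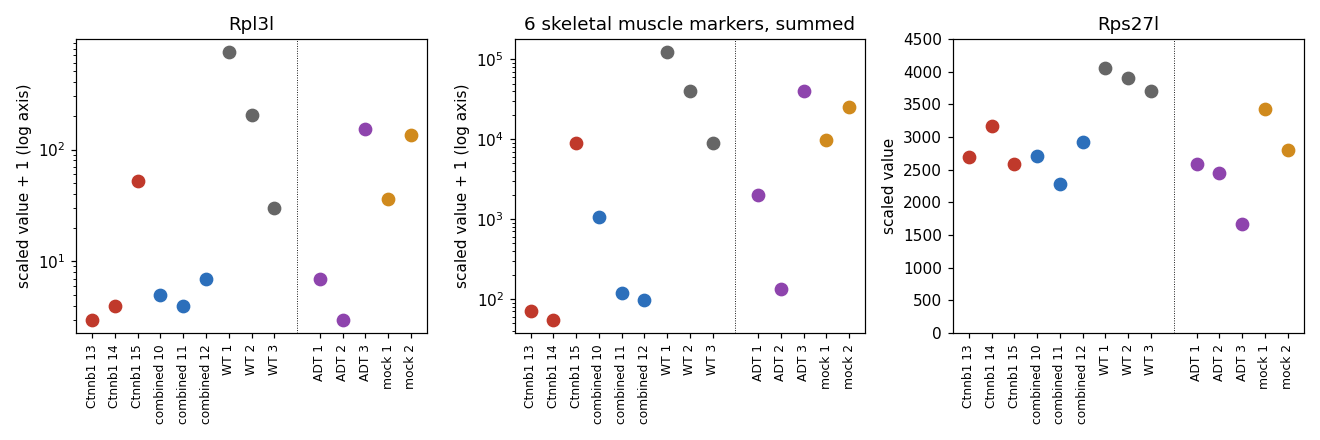
Scaled values of Rpl3l (left, log axis), of 6 skeletal muscle markers summed (middle, log axis) and of Rps27l (right, linear axis) in every library, with the inducible model right of the dotted line. Among the genotype libraries Rpl3l is highest in WT 1 and WT 2, where the muscle markers are highest. WT 3 and Ctnnb1 15 have like marker sums (9066 and 8954) and Rpl3l at 29 and 51. Rps27l lies at 2284 to 3170 in the tumour genotypes against 3708 to 4056 in WT.

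In the inducible model no ribosomal protein gene was called after androgen deprivation. The median member stood at 12468, 13341 and 12874 units in the ADT libraries, against 12458 and 15343 in the mock libraries, so that all ADT values fell within the range of the mock libraries. Members took 3.61%, 3.81% and 3.78% of all summed values in the ADT libraries and 3.61% and 4.62% in the mock libraries. Of the 81 members, 80 were tested, since Rpl10l was at 0 in all 5 libraries. limma called 0 of them, and 0 had an unadjusted p under 0.05, beside 16.2% of all 23289 features. Only 2 features of the whole table were called (0.00859%), so a lack of calls is not particular to these genes.

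The median change was -0.09, beside -0.02 for all features, and 64 of 80 members were negative. The groups did not overlap for 15 members that were lower in ADT (16.8% of all features) and for 1 that was higher (16.4%). Mock library 1 lay below mock library 2 in 72 of 81 members. Without mock library 2 the median change was 0.03, and without mock library 1 it was -0.22. The mock libraries differed in other tissues as well, with summed fibroblast markers of 459115 and 83945 and summed macrophage markers of 75117 and 22295 in libraries 1 and 2. Luminal epithelial markers summed to 43657, 55195 and 46169 in ADT, against 84531 and 96166 in mock libraries. All 6 of these markers had negative changes, with 0 called. The part of these tissue differences in the members' values was not tested.

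Single members showed how wide the intervals are. Rpl7 had 35341, 36725 and 45266 units in ADT and 27197 and 40448 in mock libraries (log2 change 0.23, SE 0.23). Rpl8, near the peptidyl transferase centre, was the only member with all ADT libraries above mock, at 17726, 17274 and 17729 units, against 14808 and 16445 (0.17, SE 0.11, adjusted p = 0.497). Rpl22 had 6175, 7552 and 4187 units in ADT and 6848 and 9822 in mock libraries (-0.50, SE 0.31, adjusted p = 0.497). Rpl5 had 18783, 20224 and 20108 units in ADT, against 22088 and 28417 in mock (-0.35, SE 0.15, adjusted p = 0.366). None of these changes was called, although Rpl5, like Rpl8, had no overlap between ADT and mock libraries.

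The other members that the naming rule takes were not called either. Rpsa (0.02), Rps6 (0.03), Rps4x (0.07), Rplp0 (-0.08), Rps19 (-0.09), Rplp2 (-0.10), Rpl3 (-0.17), Rpl11 (-0.17), Rpl10 (-0.20), Rpl39 (-0.22), Rps14 (-0.25) and Rpl38 (-0.26) had SEs of 0.11 to 0.31. Rps9 was the member at the median (-0.09), and Rps12 (0.18), Rplp1 (0.16), Rpl18 (0.13), Rpl13a (0.12), Rps18 (-0.43) and Rpl30 (-0.44) lay towards the ends.

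The paralogues other than Rps27l were low. Rps27l had 2588, 2445 and 1664 units in ADT, against 3421 and 2795 in mock libraries, without overlap (-0.50, SE 0.25, adjusted p = 0.408). Its partner Rps27 had 2852, 2860 and 3015 units in ADT, against 2832 and 3207 in mock (-0.05). Another row under the symbol Rps27, that of Rps27rt, was higher, at 7489, 7635 and 8239 in ADT and 7024 and 8573 in mock. Rpl3l was at 6, 2 and 152 units in ADT and 35 and 134 in mock libraries, and the summed muscle markers at 2001, 132 and 39924 in ADT and 9688 and 25174 in mock. Rpl39l was listed at 28, 1 and 0 units in ADT and at 0 in both mock libraries, and Rps4l at 38, 71 and 49 in ADT and 61 and 55 in mock.

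The wider machinery of ribosome production and use was read from lists of genes, whose calls are given beside the background shares above and on the authors' scaling; with equal totals every change below would be about 0.48 (Ctnnb1) or 0.51 (combined) higher. Ribosomal proteins whose symbols fall outside the naming pattern had a median of 0.47 in the Ctnnb1 group, with 5 of 7 higher, and of -0.15 in the combined group, with 1 higher and 2 lower. A row listed under both Rpl36al and its paralogue Rpl36a rose by 0.61 in the Ctnnb1 group (adjusted p = 0.00246). It is among those counted as higher, but which of these genes it measures could not be told. A second row under Rpl36a changed by -0.45 (adjusted p = 0.0039). Rps3a1, of the small subunit, rose by 0.47 in the Ctnnb1 group (adjusted p = 0.00349) and was at -0.15 in the combined group (adjusted p = 0.205). Rpl22l1, the paralogue of Rpl22, rose in both, by 0.71 and 0.50 (adjusted p = 0.000311 and 0.00181).

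Other genes whose mRNAs carry the terminal oligopyrimidine motif had 10 of 16 members higher and 0 lower in the Ctnnb1 group (median 0.32), and 3 higher and 5 lower in the combined group (median -0.11). Npm1, the nucleolar chaperone nucleophosmin, had 21249, 21254 and 21847 units in the Ctnnb1 and 14196, 15178 and 16838 in the combined libraries, against 10032, 10595 and 9730 in WT (1.08 and 0.60, adjusted p = 3.07e-05 and 0.000366). Nap1l1, a histone chaperone, rose by 0.78 and 0.87 (adjusted p = 0.000492 and 0.000294).

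Factors that assemble and export ribosomal subunits had 11 of 17 members higher and 2 lower in the Ctnnb1 group (median 0.43), and 8 higher and 4 lower in the combined group (median 0.24). Ltv1, an assembly factor of the small subunit, had 1173, 1615 and 1244 units in the Ctnnb1 and 1323, 1151 and 1166 in the combined libraries, against 601, 627 and 650 in WT. It rose by 1.09 and 0.95 (adjusted p = 0.000202 and 0.000373). Rrs1, needed for the large subunit, rose by 0.97 and 0.58 (adjusted p = 0.000249 and 0.00305). Of RNA polymerase I, which transcribes ribosomal RNA, and its factors, 6 of 11 genes were higher and 1 lower in the Ctnnb1 group (median 0.19), and 2 higher and 1 lower in the combined group (median -0.05). Polr1a, its largest subunit, had 1913, 2047 and 2061 units in the Ctnnb1 and 1288, 1259 and 1568 in the combined libraries, against 956, 892 and 869 in WT (1.15 and 0.59, adjusted p = 4.83e-05 and 0.00101).

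Regulators of translation had 1 of 14 genes higher and 7 lower in the Ctnnb1 group (median -0.22), and 2 higher and 8 lower in the combined group (median -0.44). Pdcd4, an inhibitor of the initiation factor eIF4A, had 2277, 2786 and 2196 units in the Ctnnb1 and 2652, 2253 and 2167 in the combined libraries, against 7898, 7791 and 7836 in WT. The changes were -1.70 and -1.74 (adjusted p = 1.8e-05 and 1.74e-05). Larp1b, a relative of the protein LARP1 that binds terminal oligopyrimidine mRNAs, changed by -0.88 and -1.22 (adjusted p = 0.00017 and 3.97e-05). The ribosomal proteins of mitochondria, which belong to a separate ribosome, had 15 of 75 genes higher and 23 lower in the Ctnnb1 group (median -0.03), and 8 higher and 34 lower in the combined group (median -0.20). Mrps18a, 1 of the genes that went against the more frequent direction, rose by 2.13 and 1.39 (adjusted p = 4.46e-06 and 1.68e-05). Mrpl18 changed by -0.77 in the Ctnnb1 group (adjusted p = 4.95e-05). In the inducible model 0 genes of these 6 lists were called.

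**Figure D5:**
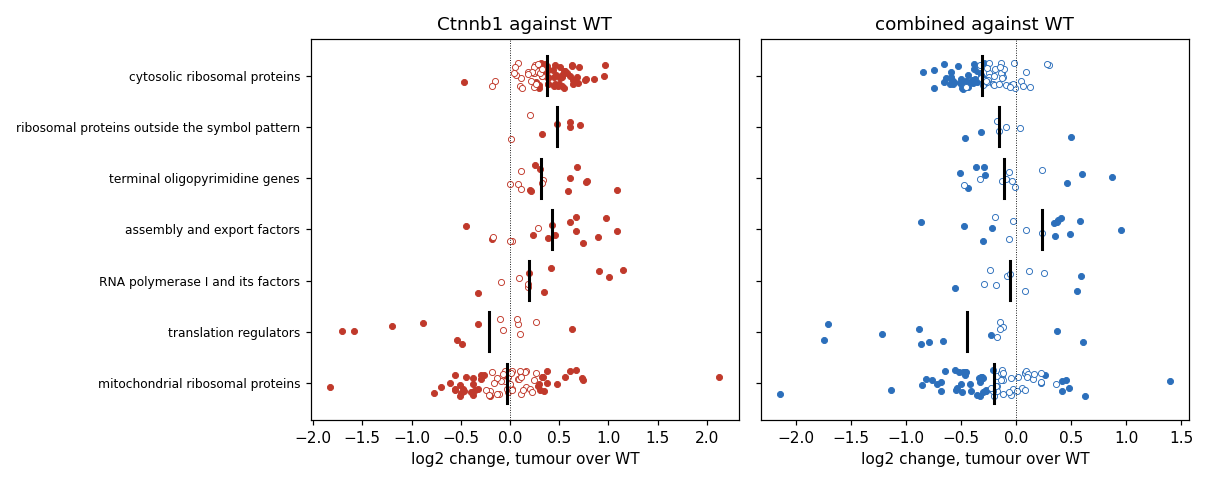
log2 change over WT of each gene of the cytosolic ribosomal proteins (without Rpl3l) and of 6 related lists, in the Ctnnb1 group (left) and the combined group (right) on the authors' scaling; filled points were called and black bars are medians. In the Ctnnb1 group the bar of the cytosolic ribosomal proteins is near 0.37 and that of the translation regulators at -0.22, while in the combined group the bars lie at -0.31 and -0.44 and that of the assembly factors at 0.24; with equal totals all would lie about 0.48 or 0.51 further right.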

How the data were processed

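Expression was measured by RNA sequencing in 17 libraries, of which 14 are described; a further genotype group, the name of a further allele and some members' own values are not reported here. The submitters' processing notes name DESeq2 1.14.1 and HTSeq 0.6.0, Bowtie2 2.2.6.0, TopHat2 2.1.0, FastQC 0.11.4, R 3.2.3 and GRCm38.p3, with roles and settings not given. The deposited values are scores: whole numbers on the scale of counts, apparently counts that the authors had normalized to each library's size factor. They are not raw counts, so the edgeR test planned for counts was replaced by limma. Depth was estimated only for the WT libraries, so no counting interval is given.

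Features with identical values were joined, and 631 rows that name no gene (9.71% to 12.7% of totals) were left out. Of 78 member symbols in the genotype files, 3 were not used: Rpl24, whose row repeats Zbtb11, and Rps27 and Rpl36a, each with 2 rows of like size, of which 1 under Rpl36a repeats Rpl36al. For 5 members with 2 rows the larger, at least 5 times the other, was taken.

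Values were fitted as log2(value + 1) with limma 3.58.1 in R 4.3.3 (trend in the prior variance), the 9 genotype libraries together and the 5 inducible libraries apart. Features with at least 1 unit in 3 (genotype) or 2 (inducible) libraries were tested. The code was tested on simulated data. Named genes are the 6 highest and 6 lowest called members per comparison (whatever the call where fewer were called), the member nearest the median and a fixed set of well-studied members and paralogues; of each list up to 3 genes with the smallest p were eligible. Alternatives were other pseudocounts, filters, scalings, prior variances and sets of libraries. Transcript lengths (the principal coding transcript) are from GENCODE M21. The members and lists were chosen with earlier results of these data known. Python 3.11.15, pandas 2.3.3 and matplotlib 3.10.9 made tables and figures.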

Additional observations from a re-analysis of the deposited data

Results flagged for a closer look

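A pseudogene row outside the members stood above the mock libraries in the inducible model. The row of Rps2-ps10, listed under the symbol Rps2 but left out of the members, had 10, 2088 and 2293 units in ADT libraries 1, 2 and 3, against 10 and 5 in the mock libraries. In the same libraries Rps2 itself had 22960, 13778 and 14461 units in ADT, against 18131 and 21612 in mock. The 2 ADT libraries with the pseudogene row raised are those with the lower Rps2 value, and whether reads moved between the rows was not tested.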

How the results depend on the processing

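Scaling to equal totals made the largest difference. In the Ctnnb1 group it gave 71 members higher and 1 lower (median 0.86), and of the named genes called under either scaling Rpl41 (0.34) and Rps27l (0.014) changed sign. In the combined group it gave 19 higher and 1 lower (median 0.20), and by the same reading Rpl11 (0.062), Rpl13a (0.39), Rpl22 (0.16), Rpl39 (0.49), Rpl5 (0.12), Rplp2 (0.14), Rps19 (0.49), Rps4x (0.073) and Rps6 (0.20) changed sign. Members called under neither scaling, such as Rpl10 in the Ctnnb1 group, also changed sign. Equal totals without the 50 highest genes gave 1 member higher and 27 lower in the combined group (median -0.23). Leaving out the paralogues gave 0 lower in the Ctnnb1 group. Without 1 library at a time, the Ctnnb1 group had 29 to 41 members higher and 1 to 2 lower (median 0.28 to 0.42), the combined group 23 to 53 lower (median -0.40 to -0.22), and the ADT group 0 called (median -0.22 to 0.03). Where a comparison was left with 1 mock library, that library was assumed to vary like the ADT libraries. No other alternative tried (a pseudocount of 8, no filter or a mean of at least 10, upper quartile scaling, prior variance without trend or robust, 12 genotype libraries, only the 2 groups compared) moved a count of members by over 1.5 times.

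ADT and mock share replicate numbers 1 and 2. Deviations of the same number correlated at 0.22 and 0.18, but with 2 such pairs and no statement in the labels the numbers do not pair the libraries. With a replicate block the median change was -0.11, with 0 members called higher and 0 lower. Unknown depth limits what can be said of Rpl3l, Rpl39l and Rps4l.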

Other observations

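The genotype files hold a second row under the symbol Rpl10, which was not used. It had 56, 935 and 636 units in the Ctnnb1 libraries and 34, 459 and 509 in the combined libraries, against 832, 75 and 66 in WT. High and low libraries occur in every group, while the main Rpl10 row varied little within groups, from 45045 to 56567 units in Ctnnb1, 29010 to 34084 in combined and 53452 to 60812 in WT.

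The 2 rows under Rpl36a also differed. The row that repeats Rpl36al changed by 0.61 in the Ctnnb1 group (adjusted p = 0.00246) and by -0.17 in the combined group (adjusted p = 0.237). The other row changed by -0.45 (adjusted p = 0.0039) and by -0.79 (adjusted p = 0.000234), with values of 5794, 5912 and 4973 units in the Ctnnb1 and 4396, 4004 and 4763 in the combined libraries, against 7486, 8077 and 7167 in WT.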
